A study of Drosophila melanogaster with 3 samples.

Results

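Peaks at divergent protein-coding promoters were the foxo-eGFP ChIP-seq peaks whose summit, the highest point of the peak, lay within 1000 bp of annotated transcription start sites of protein-coding genes on both strands. They numbered 1521 of the 9766 peaks in the authors' reproducibility-filtered (optimal) list on the dm6 build, or 15.6% (Wilson 95% interval 14.9 to 16.3, which, like every interval here, covers counting error only). A further 3055 peaks had such a start site on 1 strand only (one-strand promoter peaks), and 5190 had none within 1000 bp. The choice used positions alone: no signal, rank or motif entered it. ChIP-seq recovers and sequences the DNA bound by a chosen protein. The protein was foxo from the Drosophila melanogaster line foxo-MiMIC-GFP, in which an eGFP exon in an intron of foxo makes the gene encode a foxo-GFP fusion, and an anti-GFP antibody recovered it from sonicated chromatin of 200 to 800 bp. All 3 libraries carry this insertion and are biological replicates of 1 group: whole larvae in the third instar, at the wandering stage, males and females mixed. No peak list of untagged larvae or of input DNA was used here, so peaks that depend on foxo cannot be told apart from peaks that do not. Whole larvae mix all tissues, so occupancy in more cells and stronger occupancy per cell cannot be told apart either. The members lay on 2L (272), 2R (297), 3L (307), 3R (405), X (238) and 4 (2).

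A divergent promoter is a stretch of DNA from which a pair of genes is read in opposite directions, so that 1 upstream region lies in front of both. Such pairs are common in the compact fly genome, especially among broadly expressed genes, whose promoters often carry the DRE, the site of Dref that BEAF-32 also recognises, or the Ohler 1 motif, the site of M1BP. Foxo is a forkhead transcription factor that insulin signalling holds out of the nucleus. It accumulates there when insulin signalling is low, as in fasting, and it binds sites built on a GTAAACA-like core.

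The following sequences, read from NCBI Release 6 (dm6), show what a foxo-eGFP peak at a divergent promoter looks like in letters. Each is given on the plus strand from 5' to 3', so the first gene of the name is read leftward and the second rightward. Capitals mark matches to the DRE (TATCGATA), Ohler 1 (GGTCACAC) or the forkhead core (GTAAACA and its variants GTAAATA, likewise ATAAACA and, counted with them, ATAAATA), on either strand. The first 4 run from start site to start site, with the summit between them: Tcs5/CHMP2B (chr3L:5139395-5139619) and Art3/mRpS10 (chr3R:15229408-15229665) are shown for their height, and Atat/Shc (chr3L:9426758-9427010) and fws/Lamtor3 (chr2L:17481029-17481231) as high members with a DRE. The last 3 take the summit base and 100 bases on each side. GatA/P5cr (chr3R:19028855-19029055) has an Ohler 1 match between its start sites, while its summit lies inside P5cr. CG5611/Mtl (chr3R:27636095-27636295) has GTAAACA, read on the minus strand as in Art3/mRpS10, and Ugalt/eIF2Bbeta (chrX:2703781-2703981) is the member of highest signal.
Tcs5/CHMP2B: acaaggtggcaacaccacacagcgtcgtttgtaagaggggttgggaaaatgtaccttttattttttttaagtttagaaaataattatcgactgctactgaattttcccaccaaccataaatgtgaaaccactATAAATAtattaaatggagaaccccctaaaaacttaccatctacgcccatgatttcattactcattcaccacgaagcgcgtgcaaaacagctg
Art3/mRpS10: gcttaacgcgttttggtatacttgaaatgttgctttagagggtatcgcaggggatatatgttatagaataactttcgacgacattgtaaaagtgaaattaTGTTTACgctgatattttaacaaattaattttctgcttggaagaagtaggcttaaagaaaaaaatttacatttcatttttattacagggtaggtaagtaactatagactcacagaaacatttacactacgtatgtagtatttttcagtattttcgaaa
Atat/Shc: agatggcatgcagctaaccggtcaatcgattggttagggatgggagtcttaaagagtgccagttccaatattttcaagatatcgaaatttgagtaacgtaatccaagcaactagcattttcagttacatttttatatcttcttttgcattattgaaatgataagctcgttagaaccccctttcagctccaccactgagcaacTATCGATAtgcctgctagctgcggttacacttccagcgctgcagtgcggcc
fws/Lamtor3: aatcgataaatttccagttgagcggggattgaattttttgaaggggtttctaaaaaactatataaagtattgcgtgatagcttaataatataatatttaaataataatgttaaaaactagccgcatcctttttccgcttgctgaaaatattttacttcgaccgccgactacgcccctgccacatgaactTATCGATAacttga
GatA/P5cr: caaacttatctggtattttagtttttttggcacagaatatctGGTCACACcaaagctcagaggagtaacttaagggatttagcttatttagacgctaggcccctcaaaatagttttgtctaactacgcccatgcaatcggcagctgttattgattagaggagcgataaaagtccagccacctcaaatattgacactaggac
CG5611/Mtl: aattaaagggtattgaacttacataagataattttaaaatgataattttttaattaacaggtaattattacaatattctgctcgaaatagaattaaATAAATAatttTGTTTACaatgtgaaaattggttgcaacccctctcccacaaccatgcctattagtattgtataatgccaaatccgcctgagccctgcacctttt
Ugalt/eIF2Bbeta: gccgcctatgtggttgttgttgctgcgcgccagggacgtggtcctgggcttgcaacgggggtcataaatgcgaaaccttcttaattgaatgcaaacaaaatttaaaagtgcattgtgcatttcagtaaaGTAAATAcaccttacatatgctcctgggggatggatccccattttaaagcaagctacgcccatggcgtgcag

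Each replicate list held 30000 peaks and background regions on the 6 arms, and the 9766 with the highest signal were taken as that replicate's top list. Sequencing depth is unknown from peak lists. The share of protein-coding promoter peaks that were divergent was 33.9, 33.4 and 33.3% in replicates 1, 2 and 3 (33.5% ± 0.320, SD, n = 3), and 33.2% in the optimal list (1521 of 4576; Wilson 95% interval 31.9 to 34.6). With 3 replicates, the exact sign-flip permutation test used throughout cannot give a two-sided p below 0.25, so no comparison below can pass 0.05, and the spread between replicates is given instead.

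The nearest start site of each strand gave 1252 distinct pairs of genes, with 2483 genes in all. In 1483 of the 1521 members (97.5%, Wilson 95% interval 96.6 to 98.2) these start sites stood head to head, the plus-strand start to the right of the minus-strand start. The other 38 had overlapping transcription units and were divergent by the rule only. The head-to-head share was 97.3, 97.4 and 97.0% in replicates 1, 2 and 3. The median gap between head-to-head start sites was 334 bp (quartiles 232 and 522). Exactly 1 gene per strand had a start site in the window at 1391 members, and the remaining 130 had 3 to 10 genes. By annotation, 919 member summits (60.4%) were intergenic, 328 (21.6%) lay in a 5' UTR and 234 (15.4%) in an intron, whereas of the one-strand summits 36.6% were intergenic, 14.4% in a 5' UTR and 44.3% in an intron.

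Summits sat close in front of a start site and usually between the genes. Of the head-to-head members, 1159 of 1483 (78.2%, Wilson 95% interval 76.0 to 80.2) had the summit between the start sites, and the share was 78.7, 79.6 and 74.2% in replicates 1, 2 and 3 (77.5% ± 2.89, SD, n = 3). The median distance to the nearer start site was 85 bp at members (quartiles 45 and 139) and 258 bp at one-strand promoter peaks (quartiles 103 and 523). A member has more start sites to be near to, so part of this difference is set by the choice. In replicates 1, 2 and 3 the median at members was 77, 93 and 88 bp. The farther start site of a member lay at a median of 283 bp (quartiles 169 and 460), and both start sites lay within 200 bp of the summit at 505 members (33.2%). The band from 50 to 150 bp upstream of the nearest start held 658 members (43.3%, Wilson 95% interval 40.8 to 45.8) and 476 one-strand promoter peaks (15.6%, 14.3 to 16.9).

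**Figure D1:**
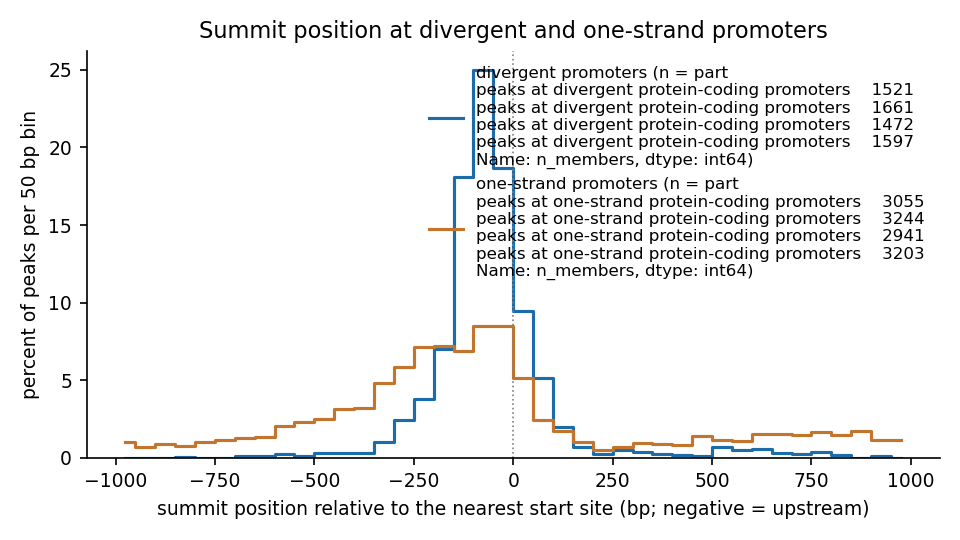
Summit position relative to the nearest start site in 50 bp bins (negative is upstream), as percent of the 1521 peaks at divergent promoters (blue) and of the 3055 at one-strand promoters (orange). The divergent curve is narrow, with 43.3% of its peaks 50 to 150 bp upstream, where the one-strand curve has 15.6%.

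The position varied with the gap, in part by construction. A wider gap has more room for a summit between its start sites. For such a summit the distances to both starts add up to the gap, so the farther one must grow with it. At gaps under 100 bp, 37.3% of 158 members had the summit between the start sites, and at the others it lay inside one of the genes. The share was 76.0% of 475 at gaps of 100 to under 300 bp, 85.8% of 577 at 300 to under 600 bp and 89.4% of 273 at 600 bp and over. The summit did not move to the middle of wide gaps: its median distance to the nearer start was 33, 76, 101 and 128 bp over those classes, while the farther start lay at medians of 80, 168, 324 and 701 bp. Median signal over the same classes was 427, 532, 420 and 350.

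**Figure D2:**
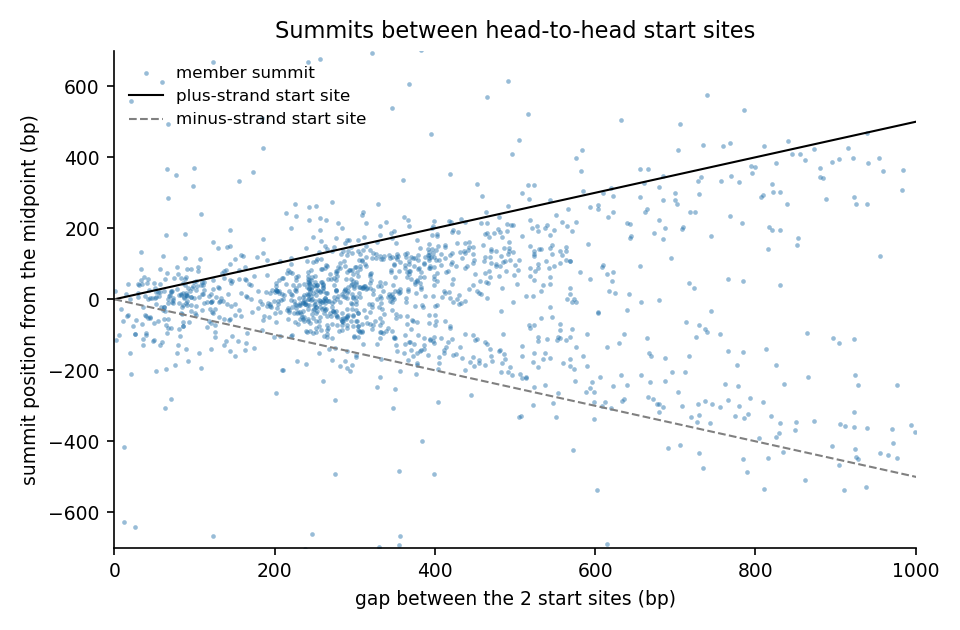
Each point is 1 of 1390 head-to-head member summits, with the gap between the start sites in bp on the horizontal axis and the summit's position from their midpoint in bp on the vertical axis; lines mark the start sites and 93 summits lie outside the axes. At gaps of 100 to under 300 bp the summits gather around the midpoint, and at wider gaps they split toward the start sites, with a median distance of 101 bp to the nearer start at gaps of 300 to under 600 bp.

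Of the 1252 pairs, 997 had 1 member summit, 242 had 2, 12 had 3 and 1 had 4. In 103 of the 242 pairs with 2 summits (42.6%), 1 summit lay upstream of, and nearer to, each start. Neighbouring summits of a pair were a median of 211 bp apart, and no neighbouring optimal summits anywhere were closer than 199 bp, so closer double summits would not show in these lists. More than 1 summit occurred at 12.9% of 147 pairs with gaps under 100 bp, 16.1% of 422 at 100 to under 300 bp, 24.3% of 473 at 300 to under 600 bp and 19.8% of 232 at 600 bp and over. The stronger summit of a 2-summit pair had a median of 1.80 times the signal of the weaker. A pair here is a pair of genes, so summits at different start sites of the same genes count together. Vha100-2/Vti1b, a proton pump subunit beside a vesicle fusion protein, was the pair with 4: their signals were 1862, 372, 218 and 189. The first 2 were nearest to start sites 67 bp apart, and the other 2 to separate start sites of these genes, 540 bp apart. The pairs with 3 summits and the highest signal were slv/sut1, Pax/Alp12, Septin2/Srp72 and CG17574/bic, with signals up to 1504, 1373, 1286 and 732. In slv/sut1 and Pax/Alp12, 1 of the 3 summits was nearest to other start sites of the pair, which overlapped.

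Seen from the annotation, a foxo-eGFP summit was more often near genes with a close opposite-strand start than near genes without one. Part of this follows from how genes were counted, as given below. Head-to-head pairs held a summit most often at intermediate gaps. A summit lay within 500 bp of the midpoint at 1252 of the 2667 annotated head-to-head pairs with gaps up to 1000 bp, or 46.9% (51.7, 45.1 and 47.4% in replicates 1, 2 and 3). At gaps of 200 to under 400 bp the share was 57.7% of 943 pairs, against 38.1% of 352 pairs at 100 to under 200 bp. The difference was 19.6, 23.0 and 20.9 percentage points in replicates 1, 2 and 3 (21.2 ± 1.70, SD, n = 3; exact sign-flip permutation p = 0.25, two-sided, the smallest possible). These gap classes were chosen after their values were seen. Replicate shares in the class of 200 to under 300 bp (61.4, 57.2 and 59.0%) did not overlap those of 100 to under 200 bp (42.6, 33.5 and 38.1%). Pairs under 100 bp were held in 42.3% of 428 cases, and at 400 to under 600, 600 to under 800 and 800 to 1000 bp the share was 47.0, 38.7 and 32.5%.

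**Figure D3:**
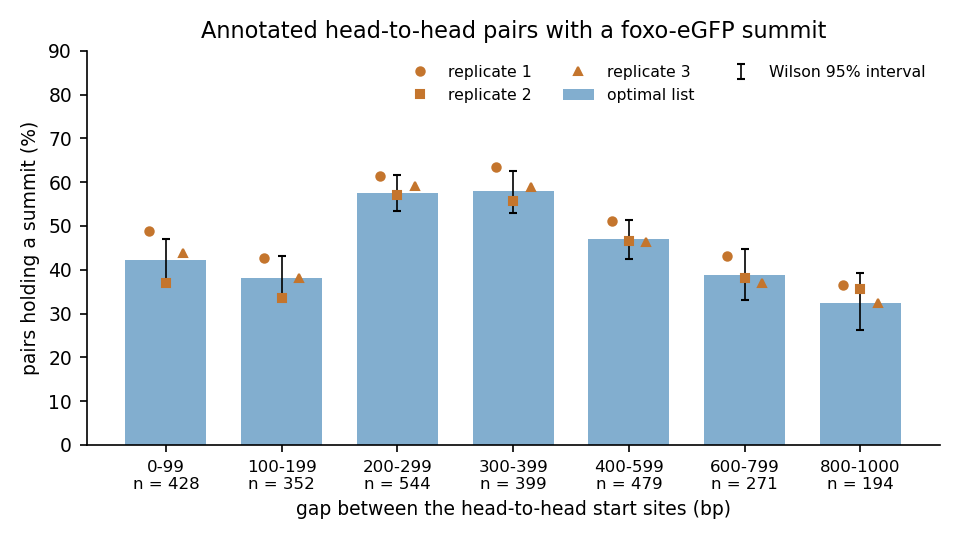
Percent of annotated head-to-head pairs with a summit within 500 bp of their midpoint, by gap in bp: bars with Wilson 95% intervals are the optimal list, and orange symbols the 3 replicates. The bars at 200 to under 300 and 300 to under 400 bp reach 57.5 and 57.9%, above 38.1% at 100 to under 200 bp in every replicate.

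By gene, a summit within 500 bp of a start site was found at 2405 of 5141 genes with an opposite-strand start site within 1000 bp (46.8%, Wilson 95% interval 45.4 to 48.1) and at 1602 of 8804 genes without one (18.2%, 17.4 to 19.0), beside 28.7% of all 13945 protein-coding genes. A summit can serve both genes of a pair, so genes are not independent here. A gene with a close opposite-strand start is also counted for summits that belong to that other start. Part of the difference between these shares is therefore set by the counting, and its size was not tested. As the distance between opposite starts grows, a summit beside the other start falls outside the 500 bp window. How far this lowered the share at 600 bp and over was not tested. The difference was 31.1, 28.0 and 29.1 percentage points in replicates 1, 2 and 3 (29.4 ± 1.57, SD, n = 3; exact sign-flip permutation p = 0.25, two-sided). The share varied with the distance to the nearest opposite-strand start and was highest between 100 and under 600 bp: it was 44.5% of 879 genes under 100 bp, 51.9% of 1759 at 100 to under 300 bp, 52.7% of 1630 at 300 to under 600 bp, 27.7% of 873 at 600 to 1000 bp, 21.1% of 1343 over 1000 and up to 2000 bp and 16.6% of 4441 beyond 5000 bp.

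Divergent-promoter peaks had a higher median signal than one-strand ones over the whole list. The signal value is the authors' own and was read within 1 list only. Members had a median signal of 433 (quartiles 257 and 771, range 151 to 10142), one-strand promoter peaks 339 and all other peaks 286. The ratio of medians, members over one-strand peaks, was 1.28 in the optimal list and 1.28, 1.34 and 1.17 in replicates 1, 2 and 3 (1.27 ± 0.0847, SD, n = 3; exact sign-flip permutation p = 0.25, two-sided). In the upper 50% of each list the ratio was 1.10 in the optimal list and 1.05 ± 0.0514 over the replicates (SD, n = 3; exact sign-flip permutation p = 0.5, two-sided), so there the replicates did not all have the same direction. Among the promoter peaks in the highest decile of the optimal list, 39.1% were divergent, and 43.9% in the next decile, against 26.0% in the lowest. At the edge of the rule, the 60 members whose farther start lay 900 to 1000 bp away had a median signal of 343, and the 71 peaks just outside, at over 1000 and up to 1100 bp, 374.

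The highest members are given here with their genes and their places in the 3 replicates. Ugalt, a UDP-galactose transporter of the Golgi, and eIF2Bbeta, a subunit of the exchange factor of initiation factor eIF2, shared the highest member (signal 10142), which ranked 1, 1 and 3 in replicates 1, 2 and 3; its summit lay 29 bp upstream of Ugalt and 690 bp upstream of eIF2Bbeta. Tcs5, a kinase needed for a tRNA modification, and CHMP2B, an ESCRT-III subunit, had signal 6523 and ranks 8, 8 and 14, with the summit 108 bp from Tcs5 and 116 bp from CHMP2B. PNPase, a mitochondrial RNA-processing enzyme, and Gprk2, a G protein-coupled receptor kinase, had signal 6081 and ranks 10, 10 and 16. In all 3 of these the replicate ranks stayed within the first 16.

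Mitochondrial ribosomal protein genes were at 4 of the 25 highest members. The peak of mRpL41/CG8079 had signal 5996 (ranks 11, 17 and 13), mRpS23/CenG1A 5851 (12, 15 and 17) and Art3/mRpS10 5435 (17, 24 and 19); mRpL23/CG9004 followed with 3853 (49, 56 and 58). Chro, a chromatin protein found with BEAF-32, and Ssl1, a subunit of the general factor TFIIH, had signal 5719 and ranks 13, 21 and 12, with the summit 98 bp inside Chro. Art3 is a protein arginine methyltransferase. The peak of CG5611/Mtl had signal 5015 and ranks 21, 36 and 25. Further down the first 25 were Atat/Shc (3682), Lon/PIG-F (3477), CIA30 with CG7601 (3832) and Eno/Rrp40 (3207). Atat acetylates tubulin, Lon is a mitochondrial protease, CIA30 assembles respiratory complex I and Eno is the glycolytic enzyme enolase. The lowest of the 25, CG8892/CG34126, had signal 3100 and ranks 74, 82 and 112.

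The highest pairs of each gap class showed these positions in single cases. Under 100 bp the highest were CG8372/CG8360 (gap 57 bp, signal 4492) and CG11309/CG7632 (39 bp, 4438), both with the summit inside one of the genes. At 100 to under 300 bp Tcs5/CHMP2B, Art3/mRpS10 and CG13390/CG17294 (238 bp, 5180) had it near the middle, at 108 and 116, 119 and 138, and 105 and 133 bp from the first and second gene of the pair. Dpit47/Adf1 (152 bp, 4676) had it 842 bp inside Adf1, itself a transcription factor gene. At 600 bp and over SLC5A11/CG8419 (gap 1039 bp, 5208) had it 146 bp from SLC5A11 and 893 bp from CG8419. Among overlapping pairs, named after their values were seen, CG4741/Adck1 (2928) and CG13501/Snp (2824) were highest.

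Replicate ranks of members followed a like order. The share of members in the top list was 91.3, 85.9 and 82.3% in replicates 1, 2 and 3, and 1048 of 1521 (68.9%, Wilson 95% interval 66.5 to 71.2) were in all 3, against 64.8% of one-strand promoter peaks (63.1 to 66.5) and 65.2% of all optimal peaks. Spearman's rank correlation between replicates, over 1335 to 1371 members present in both lists of a pair, averaged 0.876 ± 0.0176 (SD over 3 pairs of replicates), and 0.820 ± 0.0200 for one-strand peaks; these are descriptions across peaks of the same libraries. Over the full replicate lists the order was the other way: 1288 members (84.7%), 86.1% of one-strand promoter peaks and 89.7% of all other peaks had a summit in all 3. Those 1288 members had a median ratio of worst to best rank of 1.66 (quartiles 1.37 and 2.08). The best rank came from replicate 1 at 616 of them, from replicate 2 at 428 and from replicate 3 at 244, and the worst from replicate 3 at 710.

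At like signal the order turned. Within deciles of the optimal list by signal, the share in all 3 top lists was lower for members in 8 of 10 deciles: in the fourth it was 84.8% against 91.2% of one-strand peaks, and in the eighth 17.5% (18 of 103) against 32.9% (94 of 286). The mean difference within deciles was -4.98 percentage points, and +4.06 points without the split (Newcombe 95% interval 1.16 to 6.90). Some peaks missed the summit match but overlapped a top peak of the replicate: 73, 66 and 104 members and 205, 168 and 187 one-strand peaks in replicates 1, 2 and 3.

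**Figure D4:**
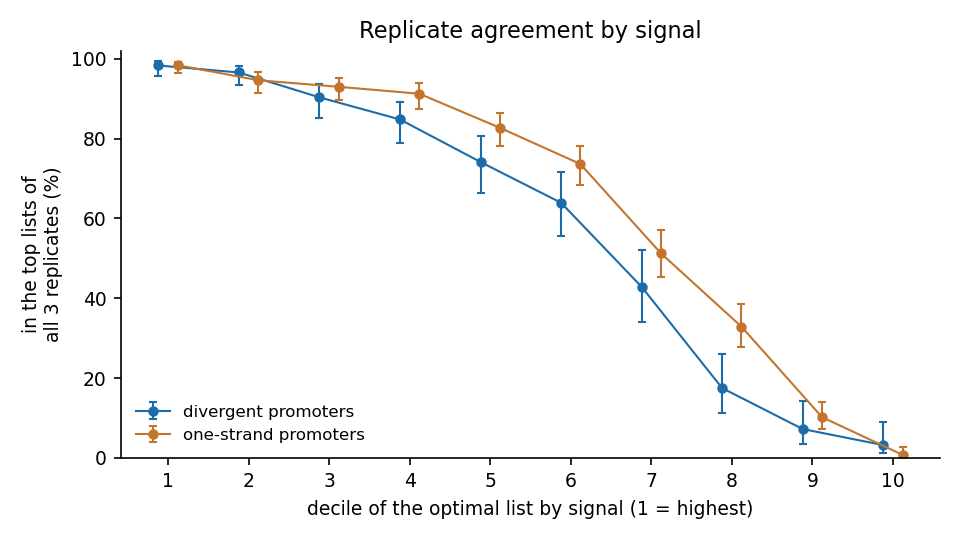
Percent of peaks found in the top lists of all 3 replicates (vertical axis) by decile of the optimal list by signal (horizontal axis, 1 is highest), with Wilson 95% intervals, for divergent promoters (blue) and one-strand promoters (orange). From the third to the ninth decile the blue points lie below the orange ones, widest apart in the eighth at 17.5% against 32.9%.

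A few members had far different ranks in the replicates. Each rank is that of the nearest replicate summit within 100 bp, so a shifted summit and a change of signal cannot be told apart here. Pgk/Bacc, with phosphoglycerate kinase of glycolysis, had signal 1809 and ranks of 9964, 284 and 230 in replicates 1, 2 and 3, so that replicate 1 stood apart. CG2993/sgll ranked 167, 550 and 1715, CG10638/CG10681 2227, 4130 and 24163, and shg/cpa, with the gene of E-cadherin, 7543, 3912 and 25785. In these 3 the worst rank was in replicate 3. A second summit of Septin2/Srp72 ranked 1587, 1442 and 15374 and one of Hat1/Rpn5 1125, 8119 and 2404. Both shared their called interval with a stronger summit, which ranked 808, 789 and 390 at Septin2/Srp72 and 694, 981 and 511 at Hat1/Rpn5.

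Motifs of broadly active promoters were more frequent at members. A DRE lay within 100 bp of 159 of 1521 member summits (10.5%, Wilson 95% interval 9.01 to 12.1), of 3.80% of one-strand summits (3.18 to 4.53) and of 6.82% of 19253 annotated start sites (window from 150 bp upstream to 50 bp downstream). The difference, members minus one-strand, was 6.64, 7.54 and 7.27 points in replicates 1, 2 and 3 (7.15 ± 0.459, SD, n = 3; exact sign-flip permutation p = 0.25, two-sided). Ohler 1 was at 7.17% of members, 2.95% of one-strand summits and 6.0% of start sites, and Ohler 7 (CAGCNCTA or CATCNCTA) at 15.3, 6.38 and 7.18%. Ohler 6, searched by its consensus, was at 2.43% of members and 0.655% of one-strand summits. At least 1 of these 4 lay at 30.9% of members and 12% of one-strand summits (32.2, 30.6 and 29.8% against 13.5, 11.3 and 10.9% in replicates 1, 2 and 3). The TATA box (TATAAA) was at 37.5% of members, 31.5% of one-strand summits and 30.1% of start sites. For the E-box (CAGCTG) these were 13.7, 10.3 and 14.3%, so members did not exceed the annotated start sites.

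The GAGA element went the other way. GAGAG, the letters bound by GAGA factor, was at 17.1% of member and 28.5% of one-strand summits, a difference of -12.2, -11.4 and -11.0 points in replicates 1, 2 and 3 (-11.5 ± 0.592, SD, n = 3; exact sign-flip permutation p = 0.25, two-sided). The Initiator (TCAGTC and its variants TCAGTT, likewise TCATTC and, counted with them, TCATTT) was at 40.9 and 44.3%. Mean GC content within 100 bp of the summit was 36.3% at member and 37.9% at one-strand summits, lower at members in all 3 replicates. Members sit nearer to start sites, and in summits within 250 bp upstream of the nearest start, a restriction chosen after the data were seen, the DRE was at 12% of 1104 members and 8.14% of 1167 one-strand peaks, Ohler 1 at 7.88 and 6.0% and GAGAG at 16.6 and 28.3%. The TATA box was at 39.5 and 32.0% of these summits and the E-box at 13.9 and 12.8%.

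**Figure D5:**
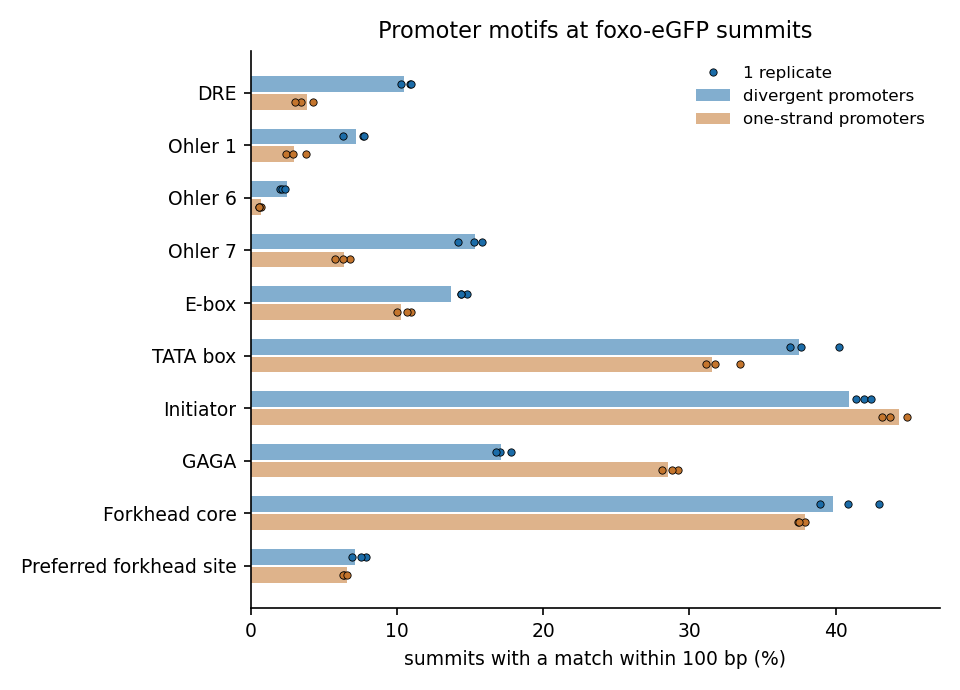
Percent of summits with a match within 100 bp on either strand, for divergent promoters (blue, upper bar of each motif) and one-strand promoters (orange, lower bar); bars are the optimal list and points the 3 replicates. DRE, Ohler 1, Ohler 6 and Ohler 7 are higher at divergent promoters in every replicate, GAGA is lower in every replicate at 17.1% against 28.5%, and the forkhead core stands at 39.8% against 37.9%.

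The forkhead core, foxo's own kind of site, differed little between the kinds of promoter. It lay within 100 bp of 606 member summits (39.8%, Wilson 95% interval 37.4 to 42.3) and of 37.9% of one-strand summits (36.2 to 39.7), beside 30.3% of annotated start sites. The difference was 3.43, 5.09 and 1.48 points in replicates 1, 2 and 3 (3.33 ± 1.81, SD, n = 3; exact sign-flip permutation p = 0.25, two-sided). GTAAACA itself, a subset of the core, was at 7.10% of members (5.92 to 8.50) and 6.55% of one-strand summits. Its share of annotated start sites was 6.27%, inside the member interval. Within members the core was most frequent in the 380 of highest signal (46.3%, Wilson 95% interval 41.4 to 51.3) and least in the 381 of lowest signal (32.8%, 28.3 to 37.7), while mean GC content was 34.0 and 38.7% in those sets; an AT-rich window holds the core more easily, and the part of composition was not tested. Ohler 1 ran the opposite way, at 2.37% in the highest set and 10.8% in the lowest. The TATA box ran the same way as the core, at 45% in the highest set and 27.6% in the lowest. Its letters TATAAA can overlap the core variant ATAAATA, and the part of this overlap was not tested. GTAAACA alone did not fall steadily with signal: it was at 8.68% in the highest set, then at 6.05 and 6.58%, and at 7.09% in the lowest. Only 6 members had both a DRE and an Ohler 1 match.

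Annotated pairs with and without a summit carried the DRE at shares whose intervals overlap. Within 100 bp of the midpoint, the DRE was at 8.63% of 1252 held (7.19 to 10.3) and 8.98% of 1415 empty pairs (7.59 to 10.6). Ohler 1 was lower at held pairs, at 4.15% (3.18 to 5.41) against 6.86% of empty ones (5.65 to 8.29). The forkhead core was at 47.7% of held pairs (44.9 to 50.5) and 43.5% of empty ones (40.9 to 46.1), where mean GC content was 32.7 and 35.1%. Ohler 7 was higher at held pairs, at 9.90% (8.37 to 11.7) against 6.29% of empty ones (5.14 to 7.68). No match says only that these letters are not in the window.

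Of all protein-coding genes, 17.8% were the nearest gene of a strand at a member, and 36.9% had an opposite-strand start within 1000 bp at all. Ribosomal protein genes stood well above this: 41 of 73 mitochondrial (56.2%) and 48 of 92 cytosolic ones (52.2%). Of those with an opposite-strand start, 41 of 58 mitochondrial and 48 of 55 cytosolic ribosomal protein genes were at a member, beside 47.0% of all such genes. Their median signals were 408 and 493, beside 492 over all member genes. The highest cytosolic ones were RpL34b/CG8132 (signal 2164, ranks 192, 253 and 222), RpS19b/CG5854 (2163) and RpS27/Nup37 (1859, ranks 206, 669 and 207). The summit of RpS19b/CG5854 lay 892 bp from RpS19b and 510 bp inside CG5854. Autophagy genes were at members in 11 of 20 cases, with Atg2 (1818), which transfers lipid to the forming autophagosome, Atg17 (1415), Atg18a (1154) and Atg7 (1066) highest. An opposite-strand start was near 16 of the 20 (80%), beside 36.9% of all genes. Of these 16 autophagy genes, 11 were at a member (68.8%), beside 47.0% of all genes with such a start.

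In the other housekeeping lists the share ran between 16.7 and 47.6%. Counts were 14 of 33 aminoacyl-tRNA synthetases (SerRS/CG17260 highest, 2013), 15 of 36 Rab GTPase genes and relatives, 10 of 21 nuclear pore genes, 16 of 48 proteasome subunits, 14 of 40 Mediator and TAF subunits (MED30/Rev1, 2069), 24 of 87 oxidative phosphorylation genes (ND-ASHI/Fum1, 1881), 7 of 19 ESCRT genes, 8 of 33 vacuolar ATPase genes, 10 of 44 translation initiation factors and 2 of 12 replication licensing genes. The lists differ in how many of their genes have an opposite-strand start (90.5% of the nuclear pore genes, 42.4% of the vacuolar ATPase genes). Among genes with such a start, the share at a member ran from 25% of 8 replication licensing genes to 78.9% of 19 Rab genes in these lists. Genes with tissue-limited use were rare: 4 of 179 chemoreceptor genes and 1 of 89 cuticle protein genes were at members, beside 17.8% of all protein-coding genes. An opposite-strand start was near 15.1 and 12.4% of these lists. Of the genes with such a start, 2 of 27 chemoreceptor genes (7.41%) and 1 of 11 cuticle protein genes (9.09%) were at a member, beside 47.0% of all such genes. The chemoreceptor case of highest signal, Or9a/Neb-cGP (749), had its summit 988 bp from Or9a and 72 bp from Neb-cGP.

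Of 14 genes listed as DRE and M1BP promoter factors or insulators, 7 were at members (50%), beside 17.8% of all protein-coding genes. An opposite-strand start was near 71.4% of the 14, beside 36.9% of all genes. Of the 10 with such a start, 7 were at a member (70%), beside 47.0% of all such genes. Chro had signal 5719, Cp190, an insulator protein, 2291 with CG4338, M1BP 982 with CG8202 and Dref 539. Dref, the DRE factor, shares its promoter with RpL13: the gap is 84 bp, the summit lay on the start of Dref, and the ranks were 2402, 3262 and 2711 in replicates 1, 2 and 3. Pairs with a gene of a list on each side, some of them named after their values were seen, also included RpL28/eIF1 (1044), Vha68-1/mTor (680), mRpL39/Prosbeta2 (416), Rab18/RpL35 (361), ACC/Nup44A (347) and Vha13/Nup58 (273).

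Of 4 genes often studied with foxo, 1 was at a member. The genes foxo, Thor, the translation repressor 4E-BP, and InR, the insulin receptor, were not at members, since their nearest opposite-strand starts lay 20547, 8430 and 45068 bp away. Each did have an optimal summit near a start site of its own, 243, 29 and 99 bp away. The gene bmm, for the triglyceride lipase brummer, was at a member shared with Tdrd3: signal 752, ranks 1736, 1413 and 2315 in replicates 1, 2 and 3, with the summit 64 bp upstream of Tdrd3 and 315 bp upstream of bmm. Of the 31 insulin and TOR signalling genes 7 were at members (22.6%), beside 17.8% of all protein-coding genes. Of the 14 with an opposite-strand start, 7 were at a member (50%), close to the 47.0% of all such genes. The highest were bigmax/Hmu (1002), Vha68-1/mTor (680) and CG2931/Rheb (516, ranks 2257, 2857 and 5612). The kinase mTor controls growth, and Rheb activates it. Of 16 lipid genes 6 were at members (37.5%), beside 17.8% of all genes, and 7 of the 16 had an opposite-strand start. Of those 7 lipid genes, 6 were at a member, beside 47.0% of all genes with such a start. The highest was SREBP with CG42637 (1083), though that summit lay 565 bp inside SREBP.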

How the data were processed

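Per the labels, chromatin of 3 biological replicates was precipitated with an anti-GFP antibody. Peaks in the deposited lists carry the authors' signal value, which they made before deposit. The aligner, the peak caller, the scaling of the signal and the cutoff of the reproducibility filter (IDR) were not stated by any source used here. Per the deposited listings, the optimal list was made with all 3 replicates, and 1 further file entered each replicate list. The dm3 lists were not used.

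Summits (start plus offset) on dm6 arms were joined to all protein-coding start sites of Ensembl release 115 (BDGP6.54; 19607 sites, 13945 genes). Replicates were read as their 9766 peaks of highest signal, and a summit within 100 bp counted as shared. Each comparison was repeated in each replicate, with an exact sign-flip permutation test over 3 values. Motif matches were centred within 100 bp of the summit. A summit took the first annotation that applied, untranslated regions before coding exons and introns last. The steps were tested on simulated data. Python 3.11.15, numpy 2.4.6, pandas 2.3.3, scipy 1.17.1 and matplotlib 3.10.9 were used.

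Members, 18 gene lists and 10 motifs were chosen with earlier results of these data known. Genes were named by rule: the 25 highest members, up to 4 per list, the 6 with the largest rank ratio, the 5 pairs with most summits, the 5 highest per gap class, and foxo, Thor, InR and bmm. Alternatives were a window of 500 bp, 1 start site per gene, the upper part of each list, other matching and motif windows, and leaving out each replicate.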

Additional observations from a re-analysis of the deposited data

How the results depend on the processing

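Of 60 alternatives over 11 results, 1 reversed. The differences and the ratio that were tested over replicates kept their direction in the optimal list, whatever their size. Of the values without a test, 12 moved by more than their spread or, for a count, by more than 1.5 times. Taking the upper 50% of each list by signal gave 982 divergent-promoter peaks, against 1521. The share of promoter peaks that were divergent was 31.5% with a 500 bp window, 38.8% with the 5'-most start site of each gene and 37.9% in the upper 50% of the list; the head-to-head share was 98.2, 93.4 and 97.9% under the same settings and 95.5% with the pair of the smallest gap; the share with the summit between the start sites was 81.6, 72.0, 82.2 and 70.1%. The difference in share found in all replicates, 4.06 points, reversed to -4.98 as the mean within deciles by signal, a setting chosen after the data were seen. No call was lost, since no test over 3 replicates could make one. The DRE difference kept its sign but fell to 3.23 points with matches within 50 bp and to 3.82 points for summits within 250 bp upstream, against 6.66. The gene difference was 23.3 points in the upper 50% of the list and 23.8 with opposite starts up to 2000 bp, against 28.6. In the upper 50% of each list the replicates did not share 1 direction for the signal ratio (1.10 in the optimal list, replicates 1.05 ± 0.0514, exact permutation p = 0.5) or the forkhead difference (2.40 points, replicates 2.67 ± 4.03, exact permutation p = 0.5; SD, n = 3). The forkhead difference was 5.16 points with a 500 bp window, against 1.90.

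Leaving out 1 replicate moved the replicate mean of the signal ratio between 1.23 and 1.31, of the gene difference between 28.6 and 30.1 points, of the DRE difference between 6.96 and 7.40, of the forkhead difference between 2.45 and 4.26 and of the gap difference between 20.3 and 21.9. No paired analysis was possible because all libraries form 1 group. Limits: peak lists carry no depth, no control list was used, whole larvae mix tissues, and start sites are annotated over all tissues and stages, not those used in these larvae.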

Other observations

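Summits of divergent-promoter peaks stood nearer to the plus-strand start site at 841 members and nearer to the minus-strand one at 677, so that 55.4% were nearer to plus (Wilson 95% interval 52.9 to 57.9). The share was 53.6, 55.2 and 55.5% in replicates 1, 2 and 3. Where the summit lay between the start sites, the median distance was 140 bp to the plus-strand start and 166 bp to the minus-strand start in the optimal list, and 138 and 157, 152 and 171, and 147 and 172 bp in replicates 1, 2 and 3. The direction was the same in each list, and the replicates share 1 annotation.

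The printed sequences of the highest members repeat a pair of letter strings that are not forkhead sites, AACCCC and TACGCCC. They were noticed there and counted afterwards, so the counts are a description of these peaks. On either strand of the bases within 100 bp of the summit, AACCCC was in 10 of the 50 highest members (20.0%, Wilson 95% interval 11.2 to 33.0), in 1 of the next 50, in 7 of the following 280 and in 45 of the remaining 1141 (3.94%). TACGCCC was in 7 of the 50 highest (14.0%, 6.95 to 26.2), in 1 of the next 50 and in 7 of the last 1141 (0.613%). At least 1 of the strings was in 13 of the 50 highest members, and in windows 500 bp to the right and left of the same summits in 2.00 and 10%. The 50 highest one-strand promoter peaks had AACCCC in 7 and TACGCCC in 5, and the next 50 had them in 7 and 1. The forkhead core was in 23 of the 50 highest members, and in 16.0 and 18.0% of their right and left windows.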
